A study of Mus musculus with 4 samples.

Results

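Gene deserts are long stretches of a chromosome with no protein-coding gene. Here they were defined by position: a STAT3 peak belonged to a desert when its centre lay more than 200 kb from every protein-coding gene of the RefSeq annotation of GRCm38.p6, on chromosomes 1 to 19 and X. By this rule 13380 of 88757 sham peaks (15.1%) and 5533 of 36239 SCI peaks (15.3%) were desert peaks, 18913 of 124996 in all. The peaks came from chromatin immunoprecipitation and sequencing (ChIP-seq) with an antibody to STAT3, a transcription factor that cytokines of the interleukin-6 family activate. The cells were dissociated from the spinal cord epicentre of C57BL/6 mice, 7 days after surgery at thoracic level 9. Sham mice had only the laminectomy, and in SCI mice the exposed cord received a moderate contusion of 60 kdyn. Each condition had 1 STAT3 library and 1 input library, every one pooled from 3 mice. The labels name no sort for a cell type. The input libraries were not analysed here. With 1 library per condition, no difference between sham and SCI has a replicate check, and every interval below covers counting error only.

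Deserts beside genes that control development are known to hold enhancers that act over long distances. STAT3 binds DNA as a dimer, at a palindrome written TTCCNGGAA in its strict form and TTCNNNGAA in its loose form. In the injured spinal cord STAT3 is best known for its part in the reaction of astrocytes. The series itself concerns astrocytes and Zeb2os, a long noncoding RNA gene at Zeb2, and Zeb2 borders one of the longest deserts.

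The letters of most desert peaks could not be read, since no genome sequence was used here. RefSeq promoter windows (300 bases, 250 before and 50 after a gene's start, GRCm38.p6) give them where a noncoding gene starts inside a desert. Of 1049 such windows on 19 chromosomes, 14 touched a sham peak, 7 an SCI peak and 4 both. The 3 windows below are shown because the peaks of both lists reach well into them. In the window of Gm1653, the other one, the sham peak covers 70 bases at the edge and the SCI peak 55. Its peaks have these 55 bases in common, more than the 26 of Gm33958 below, and its SCI peak stood in the top 7.88%. All 3 belong to lncRNA genes. Capitals mark the bases that the sham and the SCI peak have in common, and each sequence reads 5′ to 3′ on the strand of its gene.
Gm36101 (chr13:48028106-48028405, plus strand): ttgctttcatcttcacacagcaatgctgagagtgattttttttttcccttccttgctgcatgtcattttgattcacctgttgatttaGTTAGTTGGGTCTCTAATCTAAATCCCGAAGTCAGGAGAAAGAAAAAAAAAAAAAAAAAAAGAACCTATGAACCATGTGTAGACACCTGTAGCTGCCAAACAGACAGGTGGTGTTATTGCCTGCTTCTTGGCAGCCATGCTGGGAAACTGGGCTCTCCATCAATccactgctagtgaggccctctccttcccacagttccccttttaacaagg
Gm31465 (chr1:30138787-30139086, minus strand): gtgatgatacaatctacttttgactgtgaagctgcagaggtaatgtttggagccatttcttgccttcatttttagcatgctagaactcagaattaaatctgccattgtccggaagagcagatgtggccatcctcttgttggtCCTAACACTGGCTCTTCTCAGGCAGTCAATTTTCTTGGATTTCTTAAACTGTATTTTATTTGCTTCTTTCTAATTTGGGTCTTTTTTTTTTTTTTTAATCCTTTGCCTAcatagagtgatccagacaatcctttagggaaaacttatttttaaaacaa
Gm33958 (chr13:44400112-44400411, minus strand): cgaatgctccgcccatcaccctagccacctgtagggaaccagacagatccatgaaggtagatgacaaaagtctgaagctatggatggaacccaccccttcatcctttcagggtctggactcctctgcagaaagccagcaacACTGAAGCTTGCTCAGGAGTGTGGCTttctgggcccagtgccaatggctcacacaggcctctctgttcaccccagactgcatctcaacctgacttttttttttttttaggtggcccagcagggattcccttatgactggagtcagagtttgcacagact

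The Gm36101 window lies in the desert between Rnf144b and Id4, 233 kb from Id4, which encodes an inhibitor of bHLH factors in neural progenitors. The sham peak there (chromosome 13, 48028173 to 48028362) scored 21.1 and ranked within the top 7.77% in sham. The SCI peak (48028193 to 48028356) scored 13.4 and stood in the top 12.6%, so this start was high in both lists. The score is the value the authors give each peak. Ranks are used below because the scores of the 2 lists need not share a scale. At Gm31465, between Gm597 and Phf3, the sham peak (chromosome 1, 30138836 to 30139025) stood in the top 2.51% and the SCI peak (30138781 to 30138944) in the top 31.0%, with 109 bases in common. At Gm33958, in the desert beside Jarid2, a cofactor of the Polycomb repressive complex, the peaks shared only 26 bases and stood in the top 39.3% of sham and the top 76.4% of SCI.

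None of these windows held a STAT motif. TTCCNGGAA and TTCNNNGAA were searched on both strands, which for these palindromes is the same search, and every match to the first is also a match to the second. TTCCNGGAA was in 1.16% of all 32619 promoter windows and in 1.24% of the desert windows, and TTCNNNGAA in 8.34 and 12.01%. Of the 17 desert windows touched by a peak, 0 held either. No match says only that these letters are not in these windows.

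The printed sequences carry long runs of 1 base. In Gm36101 a run of 19 A (bases 130 to 148 as printed) lies inside both peaks, and in Gm31465 a run of 15 T (bases 224 to 238) lies inside both. Gm33958 has a run of 14 T (bases 235 to 248), inside the SCI peak alone. The window of Gm1653, which is not shown, had no run of 12 or more A or T. A run of 12 or more A or T, a length chosen after these sequences were seen, was then counted in all peaks of the lists that lie wholly inside a promoter window. Most of these peaks are outside the deserts. Such a run was in 56 of 161 sham peaks (34.8%, 95% exact interval 27.5 to 42.7%) and in 17 of 72 SCI peaks (23.6%, 14.4 to 35.1%). The middle of the windows, cut to the width of a sham or an SCI peak, held one in 2.27 and 1.87%. Among peaks shared by both lists it was in 10 of 17 sham peaks (58.8%, 32.9 to 81.6%) and 10 of 18 SCI peaks (55.6%, 30.8 to 78.5%). Shared peaks overlap each other, so these 2 counts are not independent, and the run of Gm36101 is in both. Within deserts a run of this length was in 4 of 7 sham peaks and 1 of 3 SCI peaks. Among these are the sham peaks of Gm31465 and Gm36101 and the SCI peak of Gm36101, whose sequences prompted the count. They are shared, so they also count among the shared peaks above. The other sham peaks with a run, at Gm29328 and Gm39381, are not shared and had runs of 16 and 17. The labels name the DNA SMART ChIP-Seq kit, a method that adds a run of T to the DNA fragments and primes on it, and the part of such runs in the peaks was not tested.

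**Figure D1:**
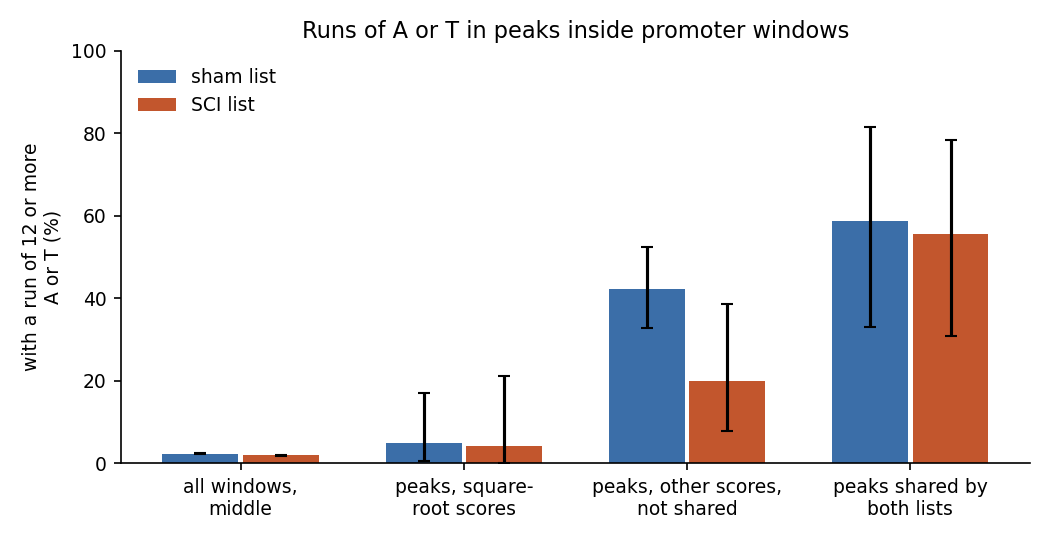
Percent of sequences with a run of 12 or more A or T, for the middle of every promoter window and for peaks wholly inside one, split into those with square-root scores, other peaks that are not shared, and shared peaks; bars are blue for sham and orange for SCI, with exact 95% intervals. Shared peaks reach 58.8% in sham and 55.6% in SCI, and the windows lie near 2%. The bars of shared peaks are not independent, since these peaks overlap.

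The deserts were 802 intervals with a total of 493 Mb, 19.2% of the 2570 Mb between the first and last peak of each chromosome. Their median length was 342 kb (quartiles 138 and 807 kb), and the 155 deserts over 1 Mb held 58.1% of the length. Sham peaks were absent from 70 deserts and SCI peaks from 129, and 57 had neither, with a median length of 18.6 kb. All 304 deserts of at least 500 kb had peaks of both lists. The rule counts protein-coding genes only, so 3 deserts hold antigen receptor loci with 421 V, D, J or C segments, and these deserts held 118 sham and 51 SCI peaks.

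Several of the longest deserts lay beside genes of cell adhesion. The first, at 4142 kb, is bordered by the protocadherin genes Pcdh20 and Pcdh9 (chromosome 14, 88671397 to 92813699) and held 101 sham and 38 SCI peaks, 6 of them at shared positions. Those that followed were the deserts of Celf4 with Pik3c3 (4111 kb), Olfm4 with Pcdh17 (4020 kb), Cntnap5b with Cdh20 (3878 kb) and Tenm3 with Aga (3589 kb). The other 5, from 3276 to 3575 kb, were bordered by Tmeff2 with Slc39a10, Lrrc4c with Iftap, Cntnap5a with Dsel, Zeb2 with Acvr2a, and Pcdh7 with G6pd2. These 10 deserts had between 22.7 and 32.5 sham peaks per Mb and between 5.84 and 15.5 SCI peaks per Mb, so none was near the densest.

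Deserts held fewer peaks than their length would give, in both lists. Positions spread evenly along each chromosome, the level that endless shuffling approaches, would put 16907 sham peaks (19.05%) and 6876 SCI peaks (18.97%) in deserts. The observed share was 0.791 times the even share in sham (95% interval 0.779 to 0.804) and 0.805 times in SCI (0.785 to 0.824). With the sham list cut to the number of SCI peaks, keeping the highest scores, the sham value was 0.710 (0.692 to 0.729). All SCI peaks were kept, so this sets top-scoring sham peaks against SCI peaks of every score. At or above the median score of each list the values were 0.730 in sham and 0.764 in SCI. Over all peaks the share was below the even share on 20 of 20 chromosomes in each list. The lowest ratio was on chromosome 11 (0.566 in sham, 0.682 in SCI) and the highest on X (0.868 and 0.9495). Density was 27.1 sham peaks per Mb in deserts against 36.3 elsewhere, and 11.2 SCI peaks against 14.8. Assembly gaps and repeats where no peak can be called were not removed, and their part in the lower density was not tested. Promoter windows in deserts had a median GC content of 44% against 53% for all windows; the part of base composition was not tested either.

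The lower density belonged to a decline that began near genes. Relative to the whole list, density was 1.09 in both lists inside protein-coding genes. Outside genes it was highest up to 5 kb away, at 1.30 (sham) and 1.27 (SCI). It was 1.05 and 1.06 from 5 to 50 kb, and 0.861 and 0.872 from 50 to 200 kb. Inside the deserts it was 0.810 and 0.831 from 200 to 500 kb, 0.743 and 0.731 from 500 to 1000 kb, and 0.777 and 0.791 beyond 1000 kb. The last 2 distances had overlapping intervals in both lists, so no further decline beyond 500 kb was detectable. Just inside the threshold, in the first 5 kb past 200 kb, lay 241 sham peaks with a median score of 7.19 and 92 SCI peaks with 7.04. In the 5 kb before it lay 231 with a median of 8.11 and 104 with 7.11. Just inside, 11.2% of sham and 29.3% of SCI peaks were shared by both lists, against 9.52 and 21.2% just outside. In these narrow strips sharing was thus not lower on the desert side, unlike over all deserts.

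**Figure D2:**
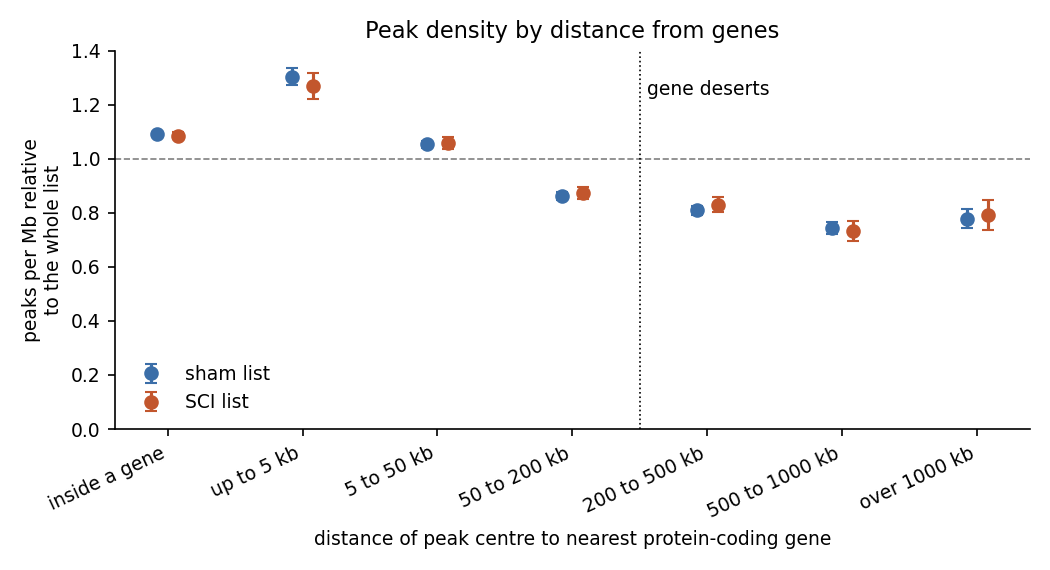
Peaks per Mb in bins of distance from the nearest protein-coding gene, relative to the whole list (dashed line at 1), with exact 95% intervals; blue is sham, orange SCI, and the dotted line marks 200 kb. Density is 1.09 in both lists inside genes, 1.30 and 1.27 outside genes up to 5 kb away, and between 0.731 and 0.831 in the deserts.

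Desert peaks ranked lower than the other peaks of their list. The median desert peak stood at the top 53.5% of scores in sham and the top 53.9% in SCI, against 49.1 and 49.5% for the rest. The top 10% by score, 10% of all sham peaks and 9.98% of all SCI peaks, held 1039 sham desert peaks (7.77%, 95% exact interval 7.32 to 8.23%) and 478 SCI desert peaks (8.64%, 7.91 to 9.41%). For the rest of the list the shares were 10.4% (10.2 to 10.6%) and 10.2% (9.89 to 10.6%). The median desert peak was lower than the rest on 20 of 20 chromosomes in sham and on 15 in SCI. Some scores have a fixed form: 1 added to them, then divided by 2 and squared, gives a whole number within 0.0001. These square-root scores were more common in deserts. They made up 27.2% of sham desert peaks against 22.2% elsewhere, and 38.9% of SCI desert peaks against 32.0%. The lowest such score, 5, was held by 994 sham and 490 SCI desert peaks.

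Most of the highest sham desert peaks were narrow. The first, on chromosome 17 at 16591397 to 16591484, scored 91.7, ranked 9 in the sham list and lay 414 kb from its nearest protein-coding gene, in the desert between Rgmb and Gm51425. Those that followed were in the deserts of Cadm2 and Speer2, 1700015G11Rik and Luzp2, and Mmut and Ptchd4, with scores of 87.2, 82.4 and 77.0. The fifth lay beside Zeb2 and is described below. Of the 10 highest sham peaks, 2 were shared with SCI, near the 18.9% of all sham desert peaks in the top 10% by score. One of these, between Dsel and Cntnap5a (chromosome 1, 113057597 to 113057786), scored 74.2, and the SCI peak over it scored 13.4. A further 3 lay between Snx16 and Ralyl, Reg3g and Gm20594, and the cadherin genes Cdh10 and Cdh12, with scores between 61.5 and 73.4. Of the 10, 8 were narrower than the usual 190 bp.

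In SCI the first desert peak stood apart from the others. It lay on chromosome 1 at 99063100 to 99063195, between Slco6d1 and Cntnap5b, scored 90.2 and ranked 8, and the next highest scored 48.4. That next peak (chromosome 9, 91742154 to 91742317) lay in the lncRNA gene Gm39400, 353 kb from Zic4, a zinc-finger gene of neural patterning. After it came a peak in the lncRNA gene Gm46329, between Ttc6 and the somatostatin receptor gene Sstr1 (score 48.3). The fourth (score 46.4) lay 473 kb from Tmem182 and 1366 kb from Pou3f3, a POU factor of neural development. The others, with scores from 38.6 to 40.6, lay in deserts bordered by Ptchd4, Vmn2r121, Pcdh18, Edil3, Dcaf12l2 and Klhl13. Of the 10 SCI peaks, 4 were shared with sham, those of Sstr1, Ptchd4, Dcaf12l2 and Klhl13. At Sstr1 the sham peak scored 5.16, in the top 91.3% of its list, so the same position was high in 1 list and near the floor in the other. As in sham, most of the 10 SCI peaks were narrower than the usual width, 164 bp in SCI. The first was 96 bp wide, and those of Sstr1 and Ptchd4 94 and 81 bp.

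Shared positions, where peaks of both lists overlapped by at least 1 bp, numbered 973 in deserts. They made up 7.27% of the sham desert peaks (95% exact interval 6.84 to 7.73%) and 17.6% of the SCI desert peaks (16.6 to 18.6%). Over the whole lists the shares were 8.84 and 21.6%, and over the peaks outside deserts 9.12% (8.92 to 9.33%) and 22.4% (21.9 to 22.9%). The desert share was lower than the rest on 20 of 20 chromosomes for sham and on 19 for SCI. Even positions within the same deserts would share 0.407% of sham and 0.981% of SCI peaks, about 54.4 and 54.3 peaks. The observed number was therefore 17.9-fold the even level in both lists (16.8 to 19-fold in sham, 16.9 to 18.97-fold in SCI). Outside deserts the excess was 16.8-fold in both (16.4 to 17.1-fold), so the ratio to the even level was not lower in deserts, where both lists have fewer peaks.

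The lower share was present at every level of the score. In each of 10 equal classes of the ranked scores the desert peaks were shared less often than the rest, in sham and in SCI, although the intervals of many classes overlapped. In the highest class 18.9% of sham desert peaks were shared (16.5 to 21.4%) against 21.2% of the rest (20.3 to 22.2%), and 36.8% of SCI desert peaks (32.5 to 41.3%) against 43.0% (41.3 to 44.8%). If each class of desert peaks had been shared as often as the rest, 8.49% of the sham and 21.6% of the SCI desert peaks would have been. Sharing went with the form of the score. Desert peaks with the square-root form were shared in 0.880% of 3637 cases in sham and 4.27% of 2155 in SCI. Desert peaks with other scores were shared in 9.66% of 9743 and 26.1% of 3378, still below the 11.5 and 30.6% of such peaks elsewhere.

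**Figure D3:**
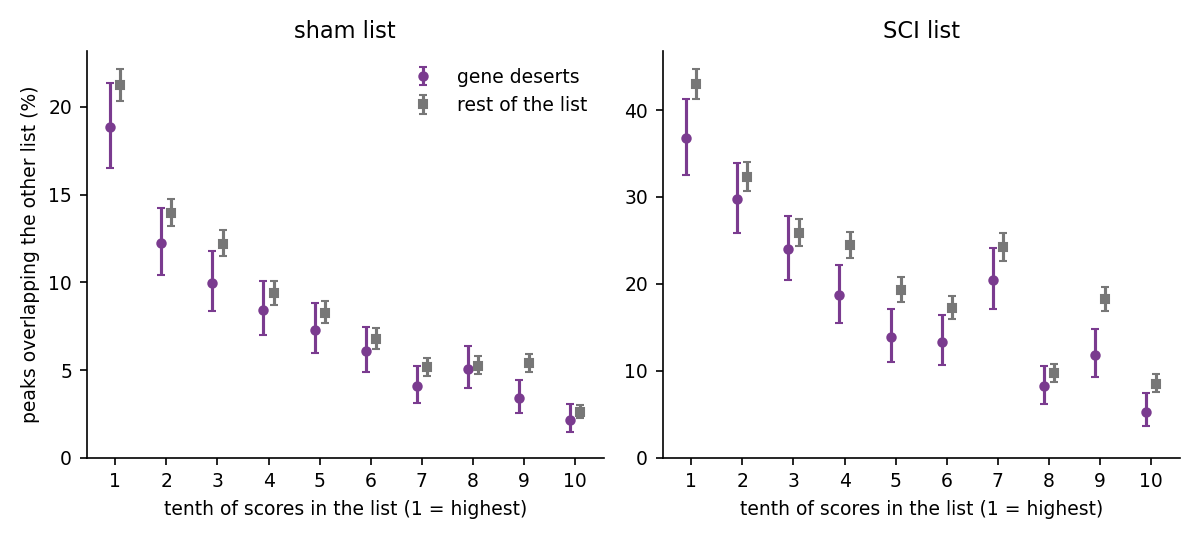
Percent of peaks that overlap a peak of the other list, by class of the ranked scores (10 equal classes, 1 is the highest), for sham on the left and SCI on the right, with exact 95% intervals; circles are desert peaks and squares the rest. Desert peaks lie below the rest in all 10 classes of both lists, with 18.9 against 21.2% in the highest class of sham and 36.8 against 43.0% in that of SCI.

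Of the 973 shared positions, 44 stood in the highest 10% of both lists (4.52%, 95% exact interval 3.30 to 6.02%) and 1 in the highest 1% of both. Outside deserts 413 of 6872 SCI peaks at shared positions stood in the highest 10% of both (6.01%, 5.46 to 6.60%), an interval that overlaps the first. In deserts the scores of the pairs had a Spearman rho of 0.109 across positions, which are not independent replicates. The strongest pair lay between Stim2 and Pcdh7, a protocadherin gene, on chromosome 5. The SCI peak at 56650244 to 56650407 scored 29.2 (top 0.822%), the sham peak at 56650151 to 56650340 scored 47.4 (top 0.453%), and the nearest protein-coding gene was 1066 kb away. Next came a pair between Pcdh17 and Diaph3 on chromosome 14 (SCI peak 85633968 to 85634054, top 0.439%, sham top 1.52%). The third lay on chromosome 13 (SCI peak 14959205 to 14959368, top 1.65%, sham top 0.356%). It was 321 kb from AW209491, its nearest protein-coding gene, and 504 kb from Gli3, the transcriptional effector of Hedgehog signalling. The other 7 lay in the deserts of Pex2, Megf9, Tenm4, Klhl13, Adgrl2 with Adgrl4, Tns1, and Ralyl. Those of Tenm4, Adgrl2 and Tns1 were inside the lncRNA genes Gm32647, A630039O03Rik and Gm29185.

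Shared positions were spread over 423 deserts, with at most 11 in 1 desert. The deserts with 11 lay between Ctnna3 and Reep3 (chromosome 10, 65203668 to 66809188, 54 sham and 25 SCI peaks), Kcnv1 and Csmd3 (chromosome 15, 45315913 to 47380637, 68 and 32) and D3Ertd751e and Pcdh10 (chromosome 3, 42003308 to 45178397, 84 and 40). Ctnna3 encodes an alpha-catenin and Pcdh10 a protocadherin. The deserts between Adgrl2 and Adgrl4 and between Slc39a10 and Tmeff2 had 9 each. Those bordered by Zfp608, Cdh7, Ctnna2, the ephrin gene Efna5 and, with Stim2, Pcdh7 had 8 each. The shortest of these 10 was that of Zfp608 and Gramd3, with 8 shared positions in 995 kb.

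The desert between Zeb2 and Acvr2a was the ninth longest, at 3297 kb (chromosome 2, 45317443 to 48614108). Zeb2 encodes a zinc-finger repressor and Acvr2a a receptor for activins. RefSeq places all 4 promoter windows of Zeb2 on the minus strand and the highest of them past the desert-side end of the gene, so this desert lies upstream of Zeb2. It held 107 sham peaks (32.5 per Mb) and 37 SCI peaks (11.2 per Mb), against 27.1 and 11.2 per Mb over all deserts. The highest sham peak, at 45335470 to 45335594, lay 218 kb from Zeb2 with a score of 76.5 and ranked 27 in the whole sham list, and no SCI peak overlapped it. Another 2 sham peaks, at 46914747 to 46914819 and 47037030 to 47037219, stood in the top 2.87 and 1.87% and were not shared either.

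The 6 shared positions of the Zeb2 desert lay 344, 724, 1283, 1402, 2045 and 3359 kb from the gene. The farthest had the highest SCI rank, with the SCI peak at 48476625 to 48476788 in the top 6.38% and the sham peak in the top 18.0%. At 1402 kb the sham peak at 46519257 to 46519446 stood in the top 11.2% and the SCI peak in the top 32.6%. The nearest, with its SCI peak at 45461058 to 45461221, stood in the top 61.8% of SCI and the top 22.7% of sham. SCI had 14 peaks from 200 to 1000 kb from Zeb2, 15 from 1000 to 2000 kb, 4 from 2000 to 3000 kb and 4 beyond. Sham had 29, 32, 32 and 14. The bins differ in length, since the rule leaves out the first 200 kb and the last bin stops where the desert ends. Most SCI peaks lay in the part nearer Zeb2, which was not tested against the sham peaks.

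**Figure D4:**
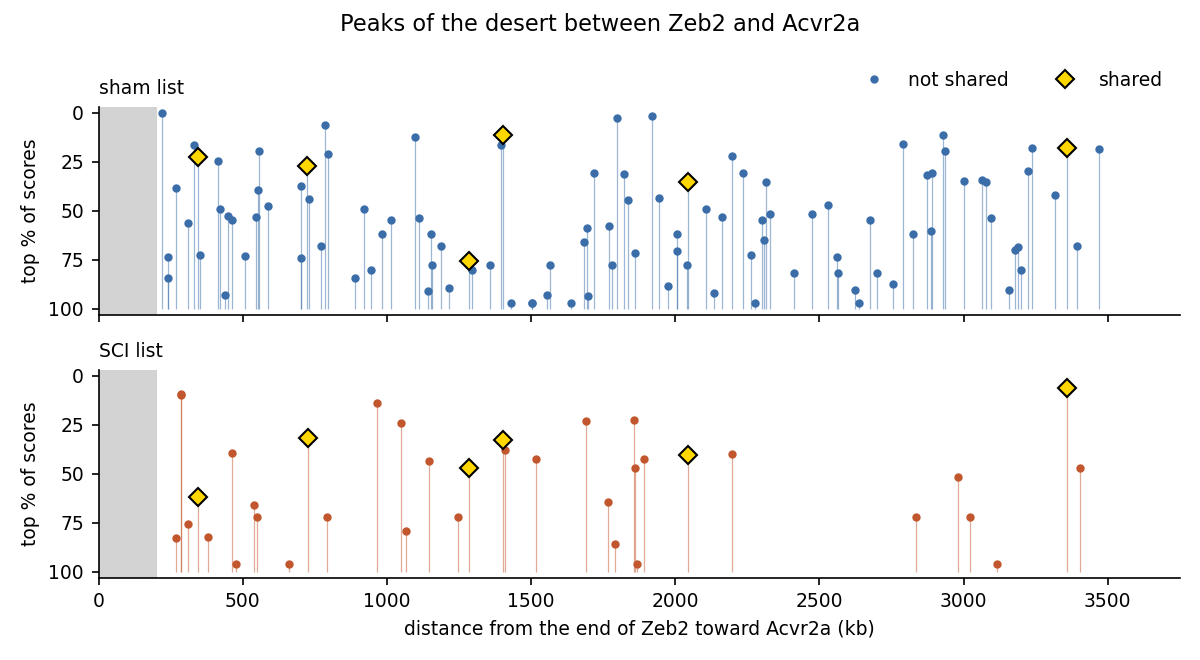
Peaks of the desert upstream of Zeb2 by distance from the end of that gene (kb, grey for the first 200 kb, which the rule leaves out) and by place in the ranked scores of the list (top percent, 0 at the top), sham above and SCI below; diamonds are the 6 shared positions. The sham peak 218 kb from Zeb2 stands highest, and the farthest shared position, at 3359 kb, is the highest of the SCI panel.

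The ratio of sham to SCI peaks in deserts was close to that elsewhere, at 2.42 (95% interval 2.34 to 2.50) against 2.45 (2.42 to 2.49). The first over the second was 0.985 (0.952 to 1.02). With peaks at or above the median score of each list it was 0.951 (0.906 to 0.999). With equal numbers of top-scoring peaks it was 0.866 (0.830 to 0.902). That setting cut the sham list alone to its highest scores and kept all SCI peaks, so the score thresholds of the 2 lists were unlike. Over all peaks, the sham to SCI ratio was higher in deserts than in the rest on 5 of 20 chromosomes. Single deserts seldom left the common ratio. Of 473 deserts with at least 10 peaks, the exact interval of the SCI share left out the overall 29.3% in 16 (3.38%), 9 with fewer SCI peaks (1.9%) and 7 with more (1.48%). A share this small is no result about single deserts. The largest of the 9 was that of Celf4 and Pik3c3 (chromosome 18, 25954521 to 30065614), with 116 sham and 24 SCI peaks. The desert between the N-cadherin gene Cdh2 and the desmocollin gene Dsc3 had 87 and 18, and that of Kctd16 and Prelid2 had 37 and 5. These 3 are all on chromosome 18, where peaks outside deserts had a ratio of 2.80, and 1 of the 7, that of Eno1b and Dtwd2, is there too. Among the 7 were the deserts of Atp2b1 with Ccer1 (14 sham and 16 SCI peaks), Unc5d with Dusp26 (24 and 21) and the potassium channel gene Kcnd2 with Ankrd7 (24 and 20). Across the 304 deserts of at least 500 kb, the densities of the 2 lists had a Pearson r of 0.217 and a Spearman rho of 0.129, given as a description of deserts that share libraries, annotation and base composition.

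The densest deserts had flanks of many kinds. Among deserts of at least 500 kb, sham density had a median of 26.6 peaks per Mb (quartiles 22.9 and 31.4), and SCI density 11.4 (8.83 and 14.0). The desert between Med13l and Tbx3, a T-box factor of limb and heart patterning, was the densest in sham and the fourth in SCI, with 25 peaks (49.5 per Mb) and 11 (21.8 per Mb) in 505 kb on chromosome 5 (118965439 to 119470533). That between Dmrt2 and Smarca2, a chromatin remodelling ATPase gene, was the densest in SCI (22.8 per Mb) and the sixth in sham (39.9 per Mb). The sham list continued with the deserts of Myc and A1bg (42.2 per Mb), Frk and Amd2 (41.6), the neurotrophin receptor gene Ntrk3 and Agbl1 (41.2), and Plxna2, a semaphorin receptor gene, and Camk1g (40.0). Tnc with Pappa, Kctd16, Zfp608 and Rpl10l bordered the other 4. In SCI the deserts of Jarid2 and Cd83 (22.7 per Mb) and of Meis1, a homeodomain factor gene, and Spred2 (21.8) followed that of Smarca2. Those of Unc5d, Adra2a, Mki67, Gm44, the corepressor gene Tle4 and Bod1l made up the other 6, between 19.7 and 21.1 per Mb. The intervals of such counts are wide: 11 peaks were counted in the Tbx3 and Meis1 deserts.

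Gene lists were set beside the deserts by their flanks, the nearest protein-coding gene on each side. Of 21631 protein-coding genes, 1408 (6.51%) flanked a desert. Developmental transcription factors, defined by gene family, did so in 89 of 356 cases (25%), developmental signals and their receptors in 36 of 183 (19.7%), and axon guidance and adhesion genes in 87 of 197 (44.2%). Glutamate, GABA and potassium channel genes were at 32 of 138 (23.2%), ribosomal proteins at 7 of 84 (8.33%), JAK-STAT3 genes at 3 of 67 (4.48%) and chemosensory receptors at 10 of 1516 (0.660%). These shares come from the annotation alone. Deserts flanked by adhesion genes were long, with a median of 916 kb, and held 30.5% of all desert length.

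Over all peaks, density was slightly higher beside developmental transcription factors and at the common level beside adhesion genes. The 97 deserts with such a factor as a flank had 30.02 sham peaks per Mb, 1.11 times the density of all deserts (95% interval 1.05 to 1.16), and 12.1 SCI peaks per Mb, 1.08 times (1.00 to 1.17). Of 8 alternatives, 6 had an interval that left out 1 in each list. In SCI the setting of equal numbers only repeats the main value, since all SCI peaks were kept, so it adds nothing there. The SCI value was 0.999 (0.854 to 1.16) when deserts began at 500 kb, where the sham interval also held 1. With only the peaks at or above the median score both intervals held 1, at 1.075 (0.999 to 1.15) in sham and 1.11 (0.991 to 1.23) in SCI. Among those of at least 500 kb the median density was 30.9 in sham and 11.6 in SCI, beside 26.6 and 11.4 over all. Their peaks were shared in 8.35% of sham cases (6.99 to 9.87%) and 20.7% of SCI cases (17.5 to 24.1%), beside 7.27 and 17.6% over all deserts, values inside these intervals. The shared positions came to 2.51 per Mb beside 1.97 over all deserts. The 115 deserts flanked by adhesion genes were at 1.01 times the common density in sham (0.984 to 1.04) and 0.984 times in SCI (0.945 to 1.02). Signals and receptors were at 1.06 (0.972 to 1.15) and 1.10 (0.960 to 1.25), and the channel genes at 0.920 (0.850 to 0.994) and 0.986 (0.875 to 1.11). Whether these intervals held 1 changed with the settings. For signals and receptors the sham interval left out 1 at 500 kb (1.18, 1.01 to 1.37) and without predicted genes (1.10, 1.02 to 1.20), and the SCI interval did so with peaks at or above the median score (1.21, 1.01 to 1.45). For channel genes only 3 of 8 alternatives left out 1 in sham, and at 500 kb the value was 0.940 (0.835 to 1.05).

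Of the factor genes named here, Gata3 bordered the desert with most shared positions, 7. That desert (chromosome 2, 7596342 to 9657077) had 65 sham and 30 SCI peaks. Zeb2 followed with 6 and the neural POU factor gene Pou3f2 with 5, then Irx1, Nr2f1, Pou3f3 and Zfhx3 with 4. Among signals and receptors, Acvr2a borders the same desert as Zeb2, and Bmp4 and Fzd8 had 4 shared positions each. The Bmp4 desert is short, 325 kb on chromosome 14 (45858144 to 46183524), with 12 sham and 8 SCI peaks. Gfra2, Hs3st1 and Ntrk3 had 3 each. Hs3st1 encodes a heparan sulfate sulfotransferase, a family that the list includes although its members are neither signals nor receptors. In the axon guidance and adhesion list those with most were Csmd3, Pcdh10, Adgrl2, Adgrl4, Cdh7, Efna5 and Pcdh7. That list was drawn up by gene symbol, so not every member, Csmd3 among them, need be an adhesion gene. Among channel genes they were Kcnv1, Grik2, a kainate receptor subunit gene, and Kcnt2, with 11, 7 and 6.

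**Figure D5:**
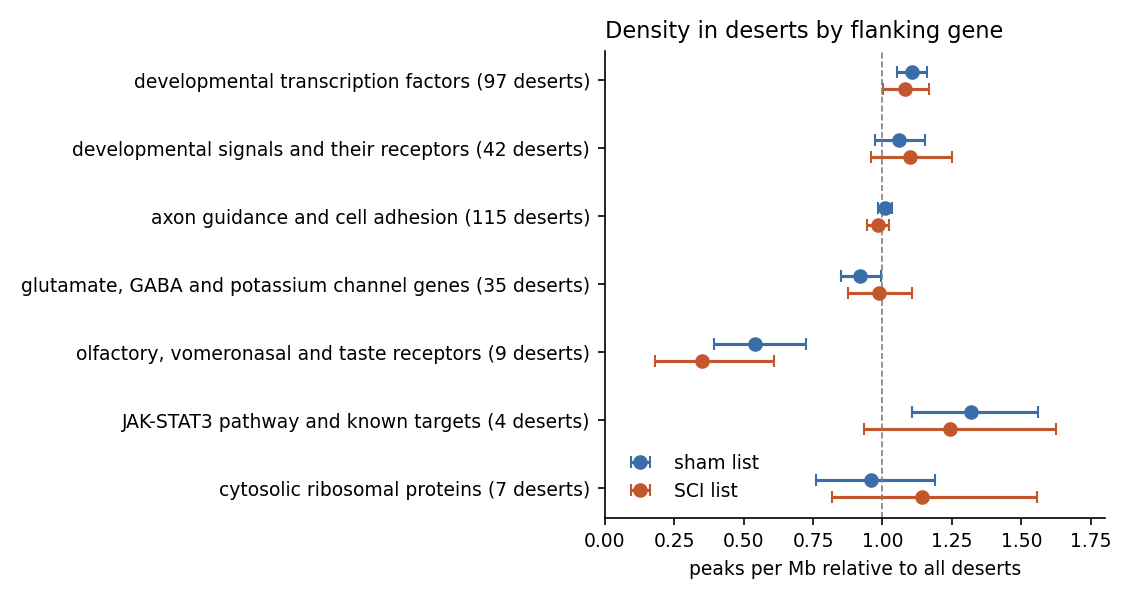
Peaks per Mb in deserts with a flank from each gene list, relative to all deserts (dashed line at 1), with exact 95% intervals; blue is sham, orange SCI, and the number of deserts stands after each list. Developmental transcription factors lie at 1.11 and 1.08, adhesion genes at 1.01 and 0.984; the low values of the chemosensory receptors rest on 1 desert of X and are 1.30 and 0.787 without it.

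The JAK-STAT3 list, the pathway and its known targets, touched 4 deserts through Myc (on both sides), Socs6 and Bcl6. They held 136 sham peaks, 1.32 times the common density (1.11 to 1.56), and 53 SCI peaks, 1.24 times (0.932 to 1.62). The sham value was 1.06 (0.798 to 1.37) when deserts began at 500 kb and 1.14 (0.855 to 1.48) with only the peaks at or above the median score. With equal numbers of top-scoring peaks it was 1.17 (0.849 to 1.56), so 3 of 8 alternatives held 1 in sham. In SCI 2 of 8 left out 1, and the setting of equal numbers only repeats the main SCI value. The SCI value was 1.53 (1.04 to 2.16) with peaks at or above the median score and 1.54 (1.10 to 2.09) without square-root scores. The desert of Cbln2 and Socs6 made up 46.0% of the length of these deserts. Without it, over all peaks, the values were 1.33 (1.04 to 1.67) in sham and 1.13 (0.738 to 1.65) in SCI. Myc, a growth regulator and known STAT3 target, had 28 sham and 9 SCI peaks in the desert toward A1bg (chromosome 15, 61121271 to 61785340) and 46 and 17 in that toward Gsdmc (62190362 to 63575970), with 3 and 4 shared positions. Socs6, a feedback inhibitor gene, bordered a desert with 62 and 27 peaks, 4 of them shared. The desert between Bcl6 and Lpp, of 4.48 kb, had none. The chemosensory receptor list was at 0.541 in sham and 0.349 in SCI, but 74.3% of its length was the desert of Vmn2r121 on X, with 17 sham and 5 SCI peaks in 2277 kb. Without it the values were 1.30 (0.866 to 1.88) and 0.787 (0.317 to 1.62). Ribosomal protein genes were at 0.957 (0.761 to 1.19) and 1.14 (0.818 to 1.55).

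Noncoding genes inside the deserts held as many peaks as their length would give. RefSeq places 3572 genes of other kinds there, covering 11% of the desert length. They held 1439 sham peaks (10.8%, 95% exact interval 10.2 to 11.3%) and 609 SCI peaks (11.01%, 10.2 to 11.9%), against 11% for even positions within the same deserts in both lists. Of these, 1210 sham and 511 SCI peaks lay in lncRNA genes and 113 and 47 in pseudogenes. SCI peaks inside noncoding genes were shared in 19.2% of cases (16.2 to 22.6%) and those outside in 17.4% (16.3 to 18.5%). For sham the shares were 8.20% (6.83 to 9.74%) and 7.16% (6.70 to 7.64%), so neither difference exceeded the counting error. The lncRNA gene with most shared positions was Gm32647, beside the teneurin gene Tenm4, with 5 among 43 sham and 16 SCI peaks over 1284 kb (chromosome 7, 94042496 to 95326426). The genes 6530403H02Rik, Gm31301 and Gm40677 had 3 each.

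No desert peak had its centre inside a miRNA gene. Of the 53 miRNA genes in deserts, Mir6370, between Ankrd7 and Kcnd2, lay 0.035 kb from an SCI peak and 48.7 kb from the nearest sham peak. Mir125b-1 (chromosome 9, 41581926 to 41582002), a gene of the brain-rich miR-125b family, lay 1.17 kb from an SCI peak and 2.12 kb from a sham peak. Mir195b and Mir7j lay 0.247 and 0.623 kb from a sham peak, and 33.4 and 122 kb from the nearest SCI peak. These miRNA genes are named for their small distances, after the values were seen.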

How the data were processed

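Per the submitters' processing notes, mm10 was the genome build and Bowtie2 a tool. The caller of the peaks, its control and its threshold were not given in the sources used here. Each peak of the deposited lists has a score and a −log10 value in the place of a q-value, which was not used. The lists were matched to samples by title. Read counts were not part of them, so the depth of the libraries is unknown.

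Peaks on 20 chromosomes were used. Deserts, even-position shares and overlaps were computed exactly, with no random draws, from RefSeq gene spans of GRCm38.p6, whose primary chromosomes have mm10 coordinates. Shares carry 95% exact binomial (Clopper-Pearson) intervals, also divided by an even share. No test between conditions was run. Counting was tested on simulated data. The motif search over all peaks needs a genome and was not run; promoter windows stood in for it. The desert rule, gene lists and the rule for named genes were chosen with earlier results of these data known. By that rule the text names flanks of the 10 longest, densest (at least 500 kb) and most shared deserts, the 10 highest and 10 strongest shared peaks, and list members beside most shared positions. A few genes that this rule names are not reported here. Scripts ran in Python 3.11.15 with scipy 1.17.1, pandas 2.3.3, numpy 2.4.6 and, for plots, matplotlib 3.10.9.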

Additional observations from a re-analysis of the deposited data

How the results depend on the processing

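Over the alternatives run, the low share of peaks in deserts, their low scores and their low sharing kept their direction. The share over the even share became 0.808 in sham with a distance of 100 kb, 0.762 in sham and 0.759 in SCI with 500 kb, 0.778 in sham without genes of predicted symbols and 0.763 in sham with the distance taken from any RefSeq gene. With only the peaks that scored at least the median of their list it was 0.730 in sham and 0.764 in SCI, and with equal numbers of top-scoring peaks 0.710 in sham. The share of desert peaks in the highest 10% of scores over that of the rest was 0.696 in sham at 500 kb. The shared percent in deserts over that of the rest, 0.797 in sham and 0.786 in SCI, was 0.733 in SCI with equal numbers of peaks. The sham to SCI ratio in deserts over that of the rest, 0.985, was 0.951 with these upper peaks and 0.866 with equal numbers, and in both cases its interval, which held 1 over all peaks, no longer did. Equal numbers cut the sham list alone to its highest scores and kept all SCI peaks. For deserts beside developmental transcription factors, the SCI density over all deserts turned from 1.08 to 0.999 at 500 kb.

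Leaving out square-root scores was chosen after seeing the data. It gave a share over the even share of 0.749 in sham and 0.737 in SCI, a shared percent over the rest of 0.845 in SCI and a sham to SCI ratio over the rest of 1.03. The cause of these shifts was not tested. No paired analysis was possible because each condition had 1 library. With no replicates and unknown depth, a peak in 1 list alone shows no change in binding.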
